A study of Homo sapiens with 8 samples.

Results

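The antigen receptor loci hold the gene segments from which B and T lymphocytes assemble their immunoglobulins and T cell receptors. Open chromatin was described here in 6 hg19 windows: the immunoglobulin heavy chain locus IGH (chr14, 106.03 to 107.29 Mb), the kappa light chain locus IGK (chr2, 89.15 to 90.28 Mb), the lambda light chain locus IGL with VPREB1 (chr22, 22.38 to 23.27 Mb), the joint T cell receptor alpha and delta locus TRA/TRD (chr14, 22.09 to 23.03 Mb), the beta locus TRB (chr7, 141.99 to 142.52 Mb) and the gamma locus TRG (chr7, 38.27 to 38.41 Mb). Members are all ATAC-seq peaks that overlap a window, chosen by position and not by any measured value. Peaks of the 8 lists that share at least 1 base were merged into regions. Of 133028 merged regions, 360 lay in the loci, 209 in the immunoglobulin and 151 in the T cell receptor windows. IGH held 96 of them, IGK 26, IGL 87, TRA/TRD 73, TRB 50 and TRG 28.

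ATAC-seq marks open chromatin by the cuts of a transposase, and a peak is a place where the authors' peak caller found more cuts than in its surroundings. The 4 groups, each with 2 libraries, were a SETD2 heterozygous knockout clone of the line 697, the empty guide vector control of 697 with wild-type SETD2, a SETD2 heterozygous knockout clone of KOPN-8, and the empty vector control of KOPN-8 with wild-type SETD2. SETD2 is the enzyme that trimethylates lysine 36 of histone H3. Both lines are human B cell precursor acute lymphoblastic leukaemia lines, and the labels name no drug treatment. Each edited arm is 1 clone, so the edit and other properties of a clone cannot be told apart, and the labels call the libraries biological replicates without saying how the cultures were separated. P-values therefore refer only to relabelling of these libraries of these lines, and do not extend to other clones or lines.

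During B cell development V(D)J recombination joins a variable (V), where present a diversity (D), and a joining (J) segment in front of the constant (C) genes, first at IGH and then at the light chain loci. The same enzymes act at the T cell receptor loci in developing T cells, and in many B cell precursor leukaemias as well. Joining removes or inverts the DNA between the chosen segments, and enhancers near the constant genes are known to control access to the segments. VPREB1, which lies among the lambda V segments, encodes a surrogate light chain that precursor B cells use before they have a light chain. The windows were divided into 23 parts at bounds rounded to 10 kb from the known gene order, so part bounds are approximate.

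Because VPREB1 marks the precursor B cell stage and a called region was present there in every library, its promoter sequence is shown. It is the 250 bases before the gene start on the plus strand of chromosome 22, from RefSeq with GRCh38.p14, and capitals mark CANNTG, the E-box bound by E proteins, and CCCNNGGG, the core of the EBF1 recognition sequence.
VPREB1: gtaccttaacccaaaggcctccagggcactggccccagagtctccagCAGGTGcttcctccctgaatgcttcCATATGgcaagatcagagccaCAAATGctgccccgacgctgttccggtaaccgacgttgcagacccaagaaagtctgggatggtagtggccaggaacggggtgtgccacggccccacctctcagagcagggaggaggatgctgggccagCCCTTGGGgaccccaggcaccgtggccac
Both strands were searched, and the matches did not overlap each other. CANNTG occurred 3 times, at 203, 178 and 157 bases before the start, and CCCNNGGG occurred 1 time, at 29 bases before it. At least 1 CANNTG was present in 61.8% and at least 1 CCCNNGGG in 17.1% of 35116 RefSeq promoters of the same window, and a match is a description of letters, not of a bound site. The promoter's place relative to the hg19 peaks was not mapped. In the VPREB1 part the hg19 regions chr22:22598640-22599327 and chr22:22603282-22603723 were called in all 8 libraries. Also chr22:22597521-22598007 was called in all 4 KOPN-8 libraries and in 1 of 4 of 697. The constant parts of IGH and IGL, which mark B lineage cells, and those of TRA, TRB and TRG, which mark T lineage cells, each held a region called in all 8 libraries, and that of IGK held none. Constant parts of both kinds of receptor thus held calls in these B lineage lines. No T lineage library was included, so whether such calls separate the lineages could not be tested, and no expression was measured.

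The lists held 63012 and 76495 peaks in the 697 clone, 57154 and 70099 in the 697 control, 67301 and 64667 in the KOPN-8 clone, and 70430 and 63585 in the KOPN-8 control. Read depth is unknown, so shares of each list were compared as well as numbers. In the loci there were 163 and 195 peaks in the 697 clone, 139 and 170 in the 697 control, 214 and 204 in the KOPN-8 clone, and 221 and 203 in the KOPN-8 control.

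In fold, the lines differed most at the 3 immunoglobulin loci, and in opposite directions at different loci. Relative to KOPN-8, 697 had a lower share of its peaks at IGL and IGH and a higher share at IGK, TRA/TRD and TRB. At IGL, 25 and 31 peaks were called in the 697 clone and 15 and 20 in the 697 control, against 70 and 64 in the KOPN-8 clone and 69 and 61 in the KOPN-8 control. The share of peaks in IGL averaged 0.0337% ± 0.00741 in 697 and 0.0992% ± 0.00343 in KOPN-8 (SD, n = 4 each), 2.94-fold lower in 697. At IGH it averaged 0.0462% ± 0.00539 in 697 and 0.0959% ± 0.00541 in KOPN-8, 2.07-fold lower in 697. IGK went the other way, with 0.0271% ± 0.00323 in 697 and 0.014% ± 0.00415 in KOPN-8, 1.94-fold higher in 697. TRA/TRD averaged 0.0723% ± 0.00705 in 697 and 0.0504% ± 0.00436 in KOPN-8, 1.43-fold higher in 697. TRB averaged 0.0437% ± 0.00284 in 697 and 0.0327% ± 0.00354 in KOPN-8, 1.34-fold higher in 697. TRG, at 0.0268% ± 0.00179 in 697 and 0.0245% ± 0.00238 in KOPN-8, overlapped between the lines.

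**Figure D1:**
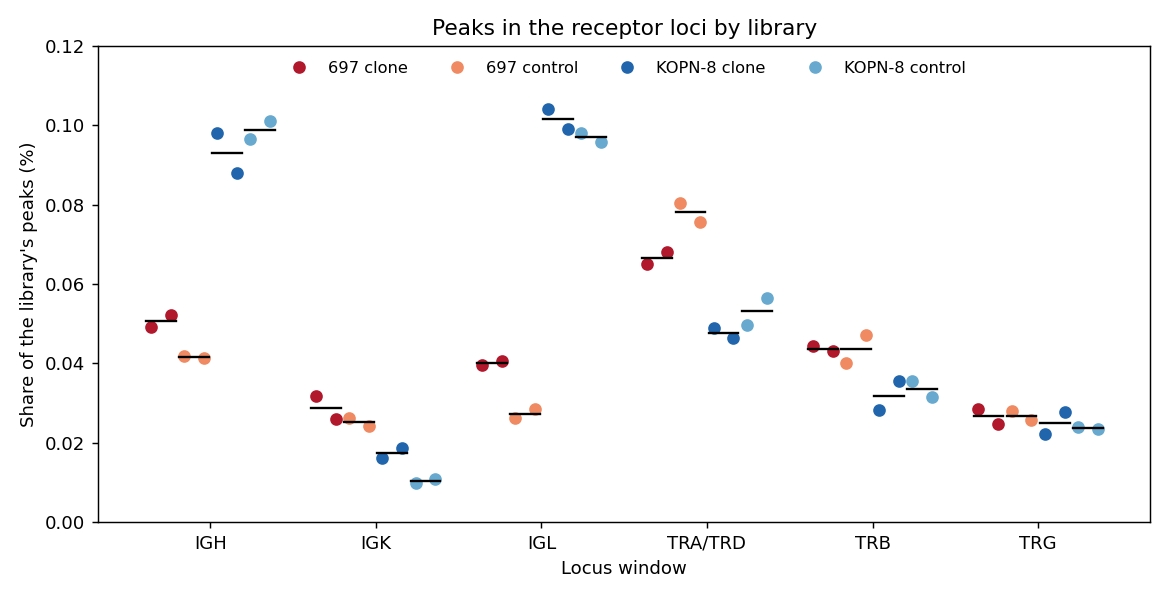
Share of each library's peaks (%, vertical axis) that overlap each locus window (horizontal axis); points are the 2 libraries of a group and black bars their mean. The 697 libraries lie below all KOPN-8 libraries at IGH and IGL and above them at IGK, TRA/TRD and TRB.

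At 5 loci the 4 libraries of 697 did not overlap the 4 of KOPN-8 (exact permutation test over libraries, two-sided, p = 0.0286, the smallest this design allows; Benjamini-Hochberg adjusted p = 0.0475 over 2844 loci and 1 Mb windows of the genome). TRG did not pass (exact permutation p = 0.143, adjusted p = 0.189). Separation of the lines is common outside the loci, since 60.2% of the 2844 features were also without overlap and 20.5% had mean shares at least 2-fold apart. Differences as large as that of IGL were found in 7.24% of features, as large as that of IGH in 18.7%, as large as that of IGK in 22.3%, as large as that of TRA/TRD in 47.8% and as large as that of TRB in 56.9%. The rest of chromosome 22 also held a lower share in 697, 0.832% against 1.25% in KOPN-8, a log2 ratio of -0.58 beside -1.56 for IGL. The rest of chromosome 14 held 3.54% of peaks in 697 and 3.12% in KOPN-8, a log2 ratio of 0.18 beside -1.05 for IGH. The other loci lie on chromosomes whose rest was also higher in 697, with log2 ratios of 0.19 beside 0.96 for IGK, 0.18 beside 0.52 for TRA/TRD, and 0.18 beside 0.42 for TRB. TRB no longer passed with plain numbers of peaks (exact permutation p = 0.0857), with the strongest 50% of each list (p = 0.171) or with peaks at least 300 bp wide (p = 0.657).

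At IGH the difference between the lines lay mainly in the V segments nearest the D and J segments. In this proximal V part 1 and 1 peaks were called in the 697 clone and 0 and 0 in the 697 control, against 24 and 21 in the KOPN-8 clone and 26 and 22 in the KOPN-8 control. Of the 35 merged regions of the part, 1 was called in any 697 library and all 35 in at least 1 KOPN-8 library. Of all merged regions, 71.7% were called in at least 1 library of 697 and 67.8% in at least 1 of KOPN-8. From chr14:106328599 to 106757947, over 429 kb, no 697 library had a call, while the same stretch held 22 and 21 peaks in the KOPN-8 clone and 24 and 19 in the KOPN-8 control. In the 697 control libraries alone the uncalled stretch was 476 kb long. It was shorter in the 697 clone because of a region at chr14:106757948-106758373, called in both clone libraries with deposited fold enrichments of 4.28 and 4.68. These folds are the authors' own values per peak, read as fold enrichment because the lists name no unit, and they serve here only to rank peaks within a list.

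The distal IGH V segments were open in both lines. They held 27 and 36 peaks in the 697 clone and 21 and 26 in the 697 control, against 38 and 34 in the KOPN-8 clone and 39 and 39 in the KOPN-8 control, and 15 of 56 regions were called in all 8 libraries. The part with the intronic enhancer, J and D segments had a single called region, chr14:106328185-106328687, present in all 8 libraries at or above percentile 58.6 of fold in each list. In the constant part chr14:106283995-106285361, a region 1367 bp wide, was called in every library, with folds of 9.3 and 10.3 in the 697 clone, 10.6 and 8.92 in the 697 control, 11 and 11.5 in the KOPN-8 clone, and 11.3 and 12.8 in the KOPN-8 control. It stood at or above percentile 77.1 in every list. Before it, a stretch of 285 kb that begins outside the window at chr14:105999471 had no call in 697, and KOPN-8 had no call over 206 kb from chr14:106008135. Stretches of at least 100 kb covered 54.2% of the IGH window in 697 and 14.6% in KOPN-8. Peak lists do not tell closed chromatin from DNA that the cells lack, and DNA copy number was not analysed here.

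**Figure D2:**
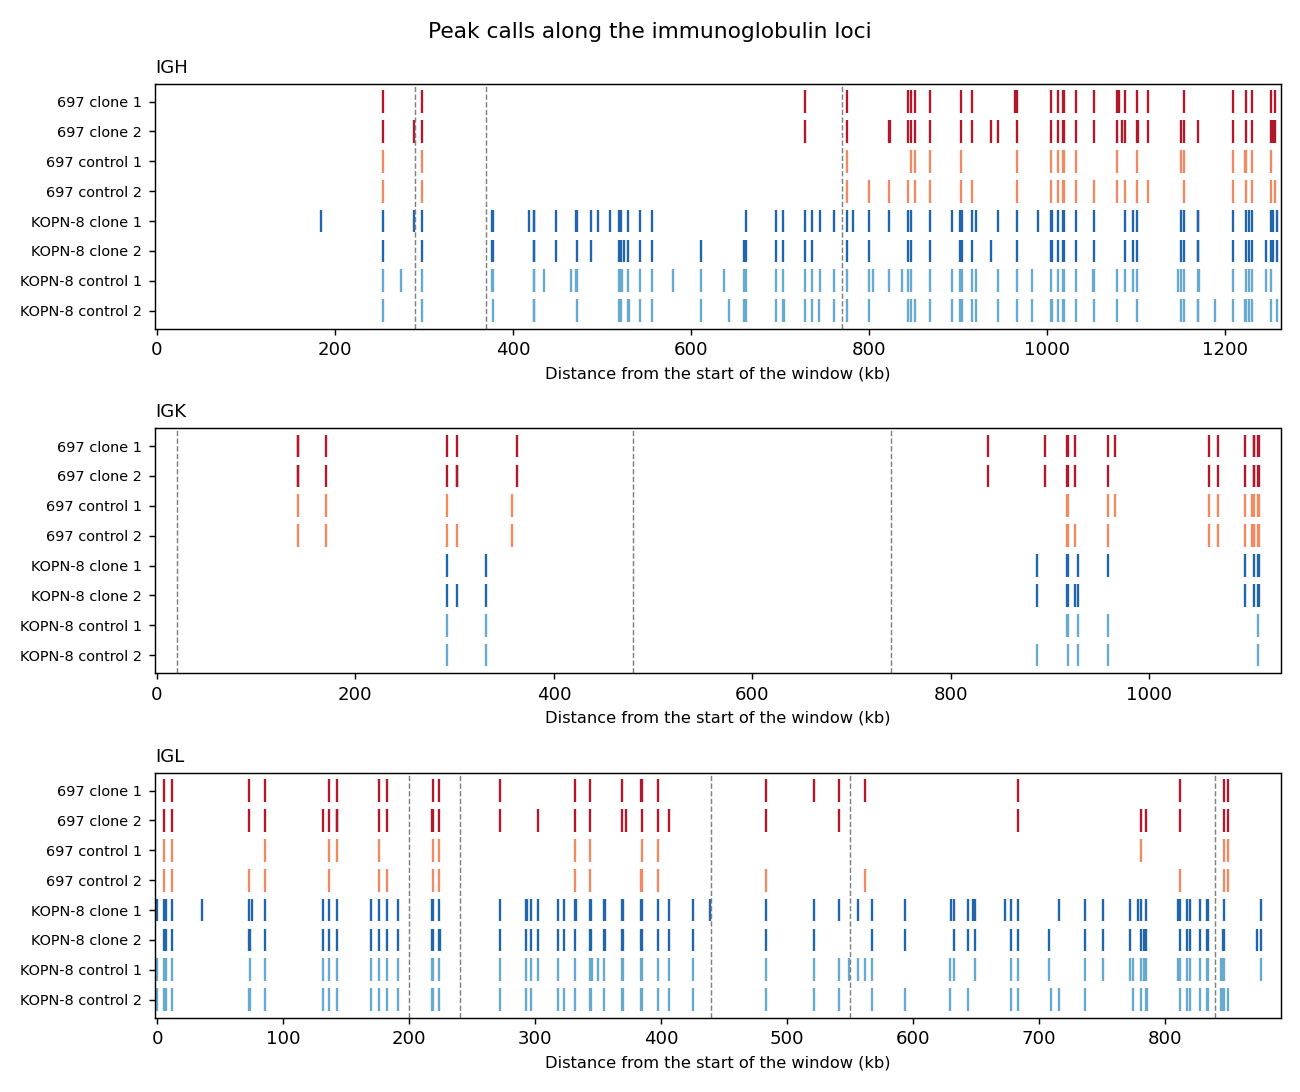
Peaks called in each library (rows) along the 3 immunoglobulin windows (horizontal axis, distance from the window start in kb); each tick is a called region and dashed lines are the approximate part bounds. The 697 rows are empty over the 429 kb of IGH in which the KOPN-8 rows hold 19 to 24 peaks.

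IGK had the fewest peaks per Mb of the 6 loci in the mean of each line, and more were called in 697. It held 20 and 20 peaks in the 697 clone and 15 and 17 in the 697 control, against 11 and 12 in the KOPN-8 clone and 7 and 7 in the KOPN-8 control. No library had a call in the 20 kb part with the constant gene, intronic enhancer and J segments, nor in the 260 kb between the V clusters, where hg19 has an assembly gap. The uncalled stretch across that part was chr2:89512956-89986939 (474 kb) in 697 and chr2:89482031-90036581 (555 kb) in KOPN-8. Further stretches ran over chr2:89131696-89291758 and chr2:89320407-89442495 in 697 and over chr2:89131768-89442526 and chr2:90108476-90246364 in KOPN-8. In the last of these 697 had 4 and 3 peaks in the clone and 4 and 3 in the control. Both lines also lacked calls from the end of the locus, at chr2:90260477 in 697 and chr2:90260409 in KOPN-8, across the centromere. Stretches of at least 100 kb covered 67% of the window in 697 and 88.9% in KOPN-8. The distal V cluster is an inverted, nearly identical copy of the proximal one, so reads may be shared between the copies, and how the authors treated such reads is not given in the sources used here.

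Most IGK calls lay in the distal V cluster. At its far end chr2:90259499-90259880 was called in all 8 libraries, with folds of 12.3 and 13.7 in the 697 clone, 13.6 and 13.1 in the 697 control, 14.4 and 13.4 in the KOPN-8 clone, and 9.15 and 6.06 in the KOPN-8 control. It stood at or above percentile 90.4 in each 697 list and in the KOPN-8 clone lists, and at 78.3 and 49.9 in the KOPN-8 control lists. In contrast chr2:90077189-90077844 was called only in KOPN-8, with folds of 17 and 13.8 in the clone and 7.94 and 7.11 in the control. Of the 26 regions, 5, all in V segments, were called in all 4 libraries of 697 and none of KOPN-8, and chr2:90218492-90218976 ranked highest among them, with folds of 11.7 and 12.7 in the clone and 10.1 and 7.95 in the control.

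IGL showed fewer calls in 697 in each of its V parts. In the proximal V part, nearest the J and C genes, 3 and 5 peaks were called in the 697 clone and 1 and 2 in the 697 control, against 26 and 22 in the KOPN-8 clone and 25 and 21 in the KOPN-8 control. The middle V part held 7 and 9 peaks in the 697 clone and 4 and 5 in the 697 control, against 21 and 18 in the KOPN-8 clone and 19 and 16 in the KOPN-8 control. The distal V part held 8 and 10 peaks in the 697 clone and 6 and 8 in the 697 control, against 15 and 14 in the KOPN-8 clone and 14 and 14 in the KOPN-8 control. In none of the 3 V parts did these numbers overlap between the lines. Such separation is common, since 60.2% of loci and 1 Mb windows had none in share of peaks overlapping between the lines. No such background was counted for windows of the size of these parts. Between chr22:22942054 and 23062683 (121 kb) no 697 library had a call, and the KOPN-8 lists held 10 and 8 peaks in the clone and 7 and 7 in the control. Taken library by library, the longest uncalled stretch of IGL was 129 and 141 kb in the 697 clone, against 384 and 250 kb in the 697 control. This difference was not tested, and how often other windows separate the arms by stretch length was not counted. In share of peaks, 50.1% of loci and 1 Mb windows had arms without overlap in 697. KOPN-8 had no stretch of 100 kb in IGL, in any library.

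Outside the V parts IGL had few calls by number in either line, but these parts are only 40 to 110 kb long. Per Mb, the 697 libraries held 40 peaks in the J and C part and 50 to 75 in the VPREB1 part, against 3.45 to 17.2 in the proximal V part. The KOPN-8 libraries held 40 to 80 and 75 to 100, against 72.4 to 89.7. The J and C part with IGLL5, a surrogate light chain relative, held 2 peaks in each 697 library and 2 and 4 in the KOPN-8 clone and 4 and 4 in the KOPN-8 control. Its region chr22:23227000-23227662 was called in all 8 libraries. The interval with ZNF280B, ZNF280A and the tumour antigen gene PRAME held 3 and 2 peaks in the 697 clone and 0 and 1 in the 697 control, and 3 and 2 in the KOPN-8 clone and 4 and 3 in the KOPN-8 control. Per Mb these were 0 to 27.3 in 697 and 18.2 to 36.4 in KOPN-8. At chr22:22862746-22863350, in that interval, KOPN-8 had folds of 12.3 and 10.2 in the clone and 12.9 and 10.8 in the control. The 697 clone was called there with 4.56 and 6.9, and the 697 control in 1 of 2 libraries with 3.86.

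The T cell receptor loci had calls in both B lineage lines. At TRA/TRD 41 and 52 peaks were called in the 697 clone and 46 and 53 in the 697 control, against 33 and 30 in the KOPN-8 clone and 35 and 36 in the KOPN-8 control. The excess in 697 lay in the V segments, with 34 and 43 peaks in the 697 clone and 37 and 46 in the 697 control, against 20 and 21 in the KOPN-8 clone and 22 and 23 in the KOPN-8 control. Of 53 V regions, 52 were called in some 697 library and 27 in some KOPN-8 library, beside the 71.7% and 67.8% of all regions. The alpha J segments went the other way, with 2 and 4 peaks in the 697 clone and 3 and 2 in the 697 control, against 8 and 5 in the KOPN-8 clone and 9 and 7 in the KOPN-8 control. Neither part's libraries overlapped between the lines, beside 60.2% of loci and 1 Mb windows without overlap in share of peaks. No background was counted for windows of the size of these parts, and differences at the level of parts were not tested. In KOPN-8 stretches without a call ran over chr14:22026087-22179622 and chr14:22568809-22668936, and 697 had none of 100 kb.

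The delta D, J and C part held the highest ranked of the regions that 697 alone called in all 4 libraries. This region, chr14:22917133-22918168, was 1036 bp wide and had folds of 15.7 and 16 in the 697 clone and 13 and 13.9 in the 697 control, at or above percentile 92.8 of each list, and was called in no KOPN-8 library. Nearby chr14:22901387-22902346 was called in all 8 libraries, with folds of 14.5 and 15.7 in the 697 clone, 15.9 and 14.4 in the 697 control, 5.21 and 4.71 in the KOPN-8 clone, and 6.74 and 5 in the KOPN-8 control. Its percentile was 95.5 or more in the 697 lists and between 30.1 and 61.1 in the KOPN-8 lists. Over the 8 lists the member with the highest smallest percentile was chr14:22538981-22539692, in the V segments, which stood at or above percentile 99.3 in each of the 8 lists. Its folds were 20.9 and 21.9 in the 697 clone, 18.4 and 20.4 in the 697 control, 21.4 and 19.1 in the KOPN-8 clone, and 19.1 and 18 in the KOPN-8 control. At the alpha constant gene and its enhancer, chr14:23018791-23019562 and chr14:23024717-23026386 were called in all 8 libraries, the second of them 1670 bp wide.

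**Figure D3:**
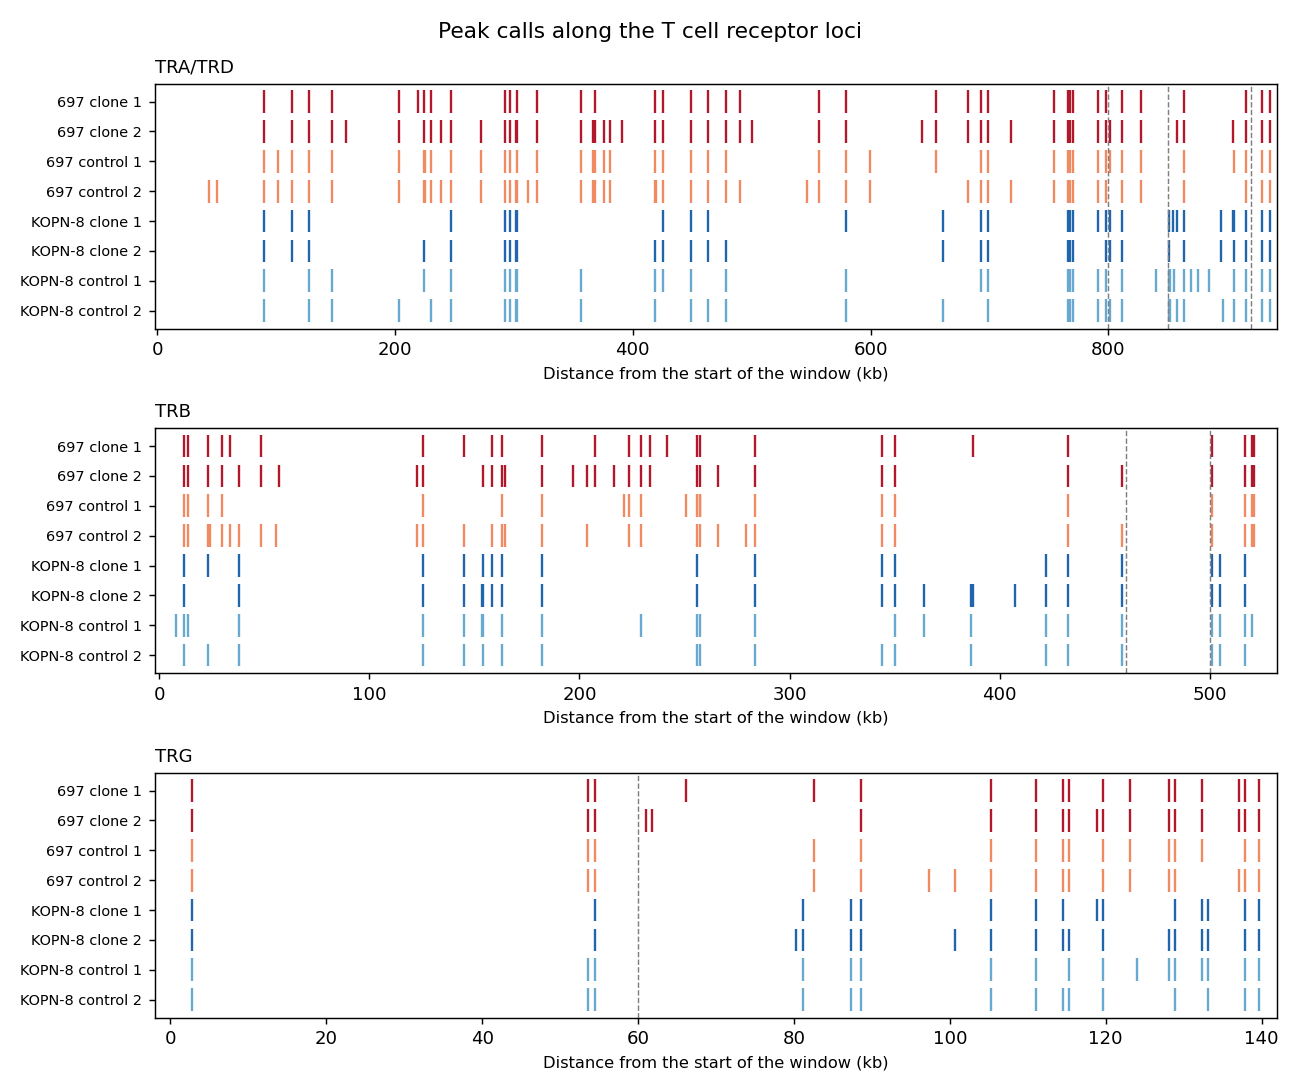
Peaks called in each library (rows) along the 3 T cell receptor windows (horizontal axis, distance from the window start in kb); each tick is a called region and dashed lines are the approximate part bounds. The TRA/TRD V segments, left of the first dashed line, hold 34 to 46 peaks in the 697 rows and 20 to 23 in the KOPN-8 rows.

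TRB held 28 and 33 peaks in the 697 clone and 23 and 33 in the 697 control, against 19 and 23 in the KOPN-8 clone and 25 and 20 in the KOPN-8 control. These numbers overlap between the lines while the shares do not. The 40 kb with the trypsinogen genes, which lie inside the beta locus, had no call in any library. In the D, J and C part with the enhancer, chr7:142490728-142491459 and chr7:142506114-142507286 were called in all 8 libraries. The part's chr7:142510903-142511213 was called in the 4 libraries of 697 only, and chr7:142494263-142495330 in the 4 of KOPN-8 only. Both were singled out after their values were seen. Their rank was low, with percentiles of 5.35 to 27.6 in the 697 lists for the first and 1.65 to 9.81 in the KOPN-8 lists for the second. In the V segments chr7:142411539-142412104 was called in KOPN-8 only, with folds of 10.3 and 10.9 in the clone and 10.9 and 13.4 in the control. The stretch chr7:141888935-141997968 without a call in KOPN-8 reached 7.97 kb into the window.

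TRG, the smallest locus, had the highest density of calls, 127 ± 8.99 peaks per Mb in 697 and 116 ± 10.7 in KOPN-8 (SD, n = 4 each). It held 18 and 19 peaks in the 697 clone and 16 and 18 in the 697 control, against 15 and 18 in the KOPN-8 clone and 17 and 15 in the KOPN-8 control. Its V segment region chr7:38374962-38375667 was called in all 8 libraries at or above percentile 85.7. Another, chr7:38350745-38351616, was called in KOPN-8 only, with folds of 12.2 and 11.9 in the clone and 11.7 and 12.1 in the control. It ranked highest of the 42 regions that KOPN-8 alone called in all 4 libraries.

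By line, KOPN-8 had more regions of its own in the loci than 697. Of the 360 regions, 14 (3.89%) were called in all 4 libraries of 697 and none of KOPN-8, beside 5.85% of all merged regions, and 42 (11.7%) were called in all 4 libraries of KOPN-8 and none of 697, beside 7.3%. A further 68 (18.9%) were called in all 8 libraries, beside 20.4%. Of the 42 KOPN-8 regions 36 were immunoglobulin regions, 13 of them in the proximal IGH V segments and 8 in the proximal IGL V segments. Of the 14 regions of 697, 5 were in IGK, 5 in TRA/TRD, 3 in TRB and 1 in TRG, and none were in IGH or IGL. In the proximal IGK V segments 697 called 8 of 9 regions in at least 1 library and KOPN-8 called 3, and in the distal IGK V segments 697 called 15 of 17 and KOPN-8 called 10, where the shares over all regions were 71.7% for 697 and 67.8% for KOPN-8. No test was made of these counts, since each line is 1 line. With peaks at least 300 bp wide the counts were 8 for 697 and 26 for KOPN-8.

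**Figure D4:**
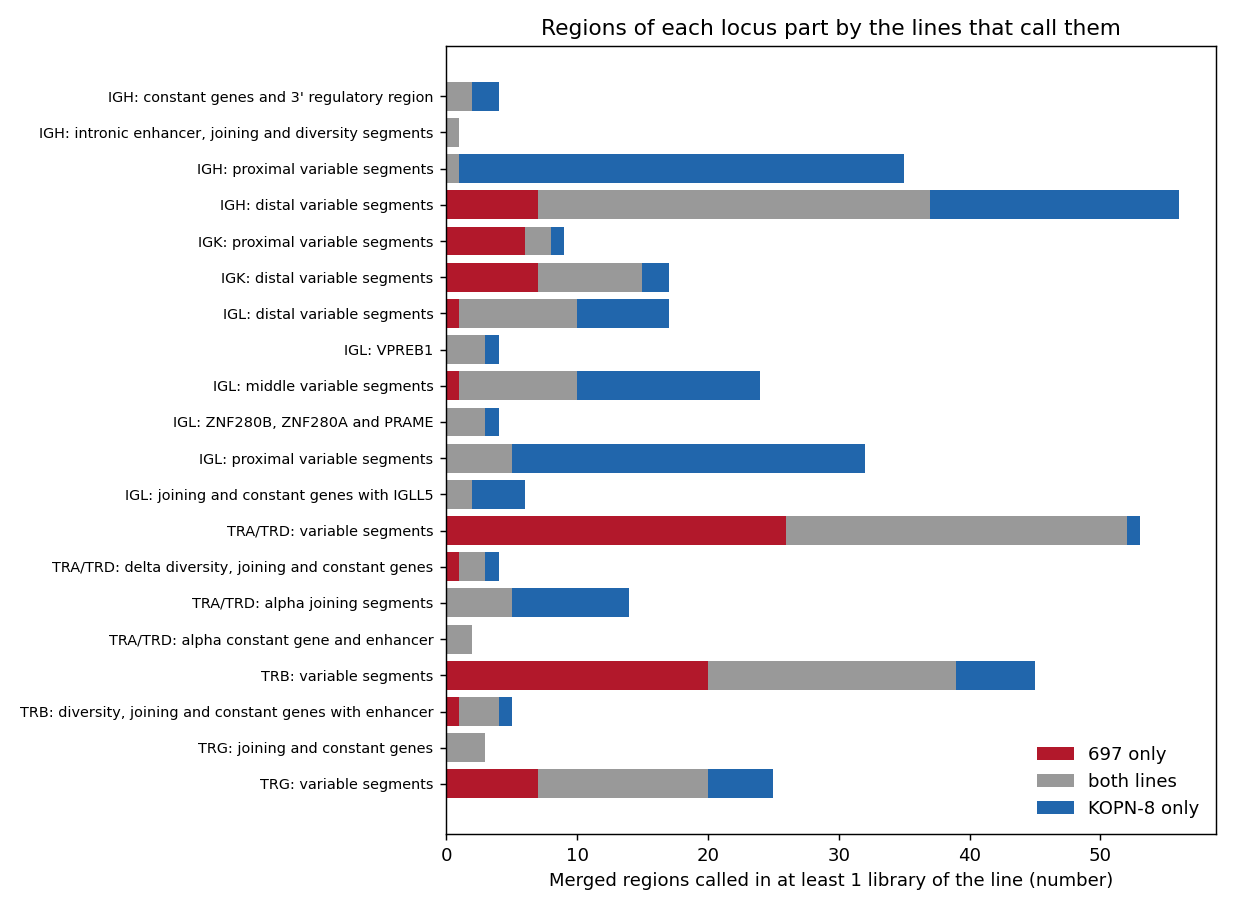
Merged regions per locus part (bars, number of regions) split by whether only 697, both lines or only KOPN-8 called them in at least 1 library; parts with no region are left out. The proximal IGH V part has 34 KOPN-8 only regions among 35, and the TRA/TRD V part has 26 regions of 697 only among 53.

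Stretches without calls also occurred elsewhere in the genome. Over the whole lists, loci included, 5.1% of the distances between neighbouring regions of 697 and 6.39% of those of KOPN-8 were at least 100 kb. Overlapping the loci there were 7 such stretches in 697 and 8 in KOPN-8, where the loci held 226 and 284 merged regions of the line. Their share of the distances in the loci was not counted, so an excess over all distances is not shown. Some lay mostly outside a window, with 19.5 kb inside it at the end of IGK in 697. In KOPN-8 19.6 kb lay inside at the end of IGK and 7.97 kb at TRB. Distances as long as the 429 kb at IGH made up 0.237% of all distances in 697. The 474 kb stretch at IGK in 697 had 0.187% of distances as long, and the 555 kb stretch in KOPN-8 had 0.122%. Both of these IGK stretches span the 260 kb part with the hg19 assembly gap, so their length is not one of uncalled sequence alone.

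With 2 libraries in each arm, no locus could pass a test between the SETD2 clones and their controls, since the smallest p possible is 0.0556 over both lines. IGL had a larger share in the clones, 0.0401% ± 0.000601 in the 697 clone against 0.0274% ± 0.00162 in the 697 control, and 0.101% ± 0.00357 in the KOPN-8 clone against 0.097% ± 0.00144 in the KOPN-8 control (SD, n = 2 each). TRA/TRD had a smaller share in the clones, 0.0665% ± 0.00206 in the 697 clone against 0.078% ± 0.00345 in the 697 control, and 0.0477% ± 0.00187 in the KOPN-8 clone against 0.0532% ± 0.00489 in the KOPN-8 control. At both loci the arms did not overlap in either line (exact permutation within lines, two-sided, p = 0.0556, adjusted p = 0.328 for each over the 2844 features). Within 1 line, 50.1% of features in 697 and 51.5% in KOPN-8 did the same, and separation in both lines at once was not counted. In KOPN-8 the nearest clone and control libraries were close, at 0.099% and 0.098% for IGL and 0.049% and 0.0497% for TRA/TRD. Plain numbers of peaks overlapped at IGL in KOPN-8 and at TRA/TRD in 697 (exact permutation p = 0.167 and 0.333 over both lines). At IGK the share was 0.0289% ± 0.00396 in the 697 clone against 0.0252% ± 0.00141 in the 697 control, and 0.0175% ± 0.00156 in the KOPN-8 clone against 0.0105% ± 0.000757 in the KOPN-8 control (exact permutation p = 0.111, adjusted p = 0.404).

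The remaining loci gave exact permutation p values of 0.833 for IGH, 0.889 for TRB and 0.833 for TRG. IGH illustrates the spread between lines: the share was 0.0507% ± 0.00219 in the 697 clone against 0.0417% ± 0.00044 in the 697 control, and 0.0931% ± 0.00702 in the KOPN-8 clone against 0.0986% ± 0.0029 in the KOPN-8 control. Within a line 2 libraries against 2 cannot give p below 0.333. Arms without overlap were found at 3 of 6 loci in 697, where 50.1% of all features had none, and at 3 of 6 in KOPN-8, where 51.5% had none. For TRA/TRD the log2 ratio of clones to controls, -0.19, became 0.00 with peaks at least 300 bp wide.

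Single regions that followed the clone were few and of low rank. In 697, 12 of 226 regions (5.31%) were called in both clone libraries and neither control, beside 4.33% of all regions of the line, and 5 (2.21%) showed the reverse, beside 1.83%. In KOPN-8, 11 of 284 regions (3.87%) were called in the clone only, beside 3.61%, and 10 (3.52%) in the control only, beside 3.81%. Over all loci together these shares are near those of the whole lists, and the loci differ among themselves. Leaving out 1 library, so that a lone library decides its arm, gave 16 to 42 clone regions and 6 to 16 control regions in 697, and 21 to 30 clone regions and 18 to 35 control regions in KOPN-8.

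Of the 12 clone regions of 697, 5 were among the 23 regions of IGK (21.7%), 4 among 33 of IGL (12.1%), 2 among 43 of TRB (4.65%) and 1 among 42 of IGH (2.38%), beside the 4.33% of all regions. In the immunoglobulin windows together they were 10.2% of regions and in the T cell receptor windows 1.56%; these small counts were not tested. The highest in rank was chr2:89452051-89452580 in the proximal kappa V segments, with folds of 6.27 and 8.91 at percentiles 51.8 and 74.6, and no other stood above percentile 50 in both libraries. Others were chr22:22652213-22652656 in the middle lambda V segments, with folds of 5.42 and 5.34, and chr2:89986940-89987192 in the distal kappa V segments, with 5.99 and 4.9. The 5 control regions of 697 were 3 of 62 regions of TRA/TRD (4.84%), all in V segments, and 2 of 23 in IGK (8.7%), beside 1.83%, and were led by chr14:22191747-22191990 with folds of 5.86 and 3.99.

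In KOPN-8 the clone regions were 4 of 90 in IGH (4.44%), 3 of 13 in IGK (23.1%), 2 of 46 in TRA/TRD (4.35%), 1 of 85 in IGL (1.18%) and 1 of 29 in TRB (3.45%), beside 3.61%. The highest in rank was chr14:106477876-106478157 in the proximal IGH V segments, with folds of 5.92 and 5.7 at percentiles 50 and 45.9. The 3 of IGK all lay at the far end of the distal V cluster, among them chr2:90260014-90260408 with folds of 4.95 and 5.39. The control regions were 2 of 90 in IGH (2.22%), 3 of 85 in IGL (3.53%), 3 of 46 in TRA/TRD (6.52%), 1 of 29 in TRB (3.45%) and 1 of 21 in TRG (4.76%), beside 3.81%, and were led by chr14:107108624-107108882 with folds of 4.57 and 5 and chr22:23224527-23224760, in the lambda J and C part, with 4.71 and 4.83. The median of the smaller percentile was 26.2 for the clone regions and 16.4 for the control regions of 697, and 23.5 for the clone regions and 20.1 for the control regions of KOPN-8. Over all such regions of the line it was 20.6 and 16.4 in 697, and 19.3 and 19.3 in KOPN-8.

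Pooled over their loci, the immunoglobulin windows held fewer peaks per Mb than the T cell receptor windows, and the difference came mainly from 697. The 3.28 Mb of immunoglobulin windows include the 260 kb of IGK with the hg19 assembly gap, where no library had a call. Densities without that part were not computed. In 697 there were 21.9 ± 4.78 peaks per Mb in the immunoglobulin windows and 59 ± 6.47 in the T cell receptor windows (SD, n = 4), lower in 4 of 4 libraries. KOPN-8 had 42.4 ± 2.32 in the immunoglobulin windows and 44.4 ± 2.56 in the T cell receptor windows (SD, n = 4), lower in 3 of 4 libraries. The pooled order did not hold locus by locus in KOPN-8. Its means per Mb were 50.6 at IGH, 8.19 at IGK and 74.2 at IGL, against 35.6 at TRA/TRD, 41 at TRB and 116 at TRG. In 697 the means were 24.6, 15.9 and 25.6 at IGH, IGK and IGL, against 51.1, 55.2 and 127 at TRA/TRD, TRB and TRG. The mean difference over 8 libraries was -19.6 ± 19.3 peaks per Mb (SD; exact paired sign permutation, two-sided, p = 0.0156), which treats the libraries of a line as independent. It did not pass with the strongest 50% of each list (exact p = 0.0781) or with peaks at least 300 bp wide (exact p = 0.125).

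Member peaks were of ordinary rank within their lists. Their median percentile of fold was 51.8 and 56.6 in the 697 clone, 47.9 and 52.1 in the 697 control, 53.9 and 45.9 in the KOPN-8 clone, and 47.3 and 47.5 in the KOPN-8 control. At TRA/TRD it was 71.3 and 67.9 in the 697 clone and 68.7 and 61 in the 697 control, against 40.4 and 44.3 in the KOPN-8 clone and 53.4 and 38.3 in the KOPN-8 control, so every 697 library stood above every KOPN-8 library. How often other windows separate the lines in percentile was not counted. In share of peaks 60.2% of loci and 1 Mb windows did. Over all loci 3.62% to 7.69% of members by library were among the strongest 10% of their list. TRA/TRD in 697 was above 10%, with 14.6% and 15.4% in the clone and 13% and 17% in the control, against 6.06% and 6.67% in the KOPN-8 clone and 5.71% and 8.33% in the KOPN-8 control. IGK in the KOPN-8 clone was also above 10%, with 18.2% and 16.7%, from 2 peaks in each library, and 0% in both control libraries. TRG was above 10% in 697 clone replicate 1 only, at 11.1%, from 2 peaks.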

How the data were processed

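The submitters' processing notes name Bowtie2, MACS2 and the build hg19, without a version, parameter or filter. The authors deposited 1 peak list per library, not pooled over replicates, with a value per peak that was read as the peak caller's fold enrichment (a ratio over local background) from its range, as the lists have no header. Depth is unknown. Samples were grouped by their labels. Peaks sharing at least 1 base were merged, over the 8 lists or the 4 of a line, and a region is called in a library that has a peak in it. The smallest peak was 200 bp wide. Percentiles of fold were computed within each list. Shares were compared by exact permutation over libraries, and adjusted (Benjamini-Hochberg) over the 6 loci and 1 Mb windows with at least 8 peaks over the libraries; these windows and the 2-fold background were chosen after seeing the data. Members, parts and lists were chosen with earlier results of these data known. Regions named in the text are those ranking highest by smallest percentile: 2 per locus and line, 10 per line and direction of clone change, 10 per line for those of that line only, 5 called in all 8 libraries, and every stretch of at least 100 kb; regions of the constant, J, D, VPREB1 and PRAME parts outside these lists were chosen after their values were seen. Replicate numbers were not treated as pairs, since the labels state no pairing; same-numbered deviations over the 23 parts correlated at 0.34 in 697 and 0.03 in KOPN-8. No hg19 genome or annotation was used. The counting of regions was tested on simulated lists. Python 3.11.15, numpy 2.4.6, pandas 2.3.3 and matplotlib 3.10.9 were used.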

Additional observations from a re-analysis of the deposited data

How the results depend on the processing

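The shares of clones over controls cannot pass the threshold under any setting, so they are given by direction only. Of 62 alternatives for the other results, apart from leaving out a library, 47 kept the direction and the side of the threshold, or a count within 1.5 times. IGH, IGK, IGL and TRA/TRD between the lines did so under all 5 such alternatives each. With the strongest 50% of each list, regions lost in the 697 clone numbered 1, and those gained and lost in the KOPN-8 clone 6 and 6. That setting gave log2 ratios of 0.38 for TRB and -0.07 for TRG between the lines, 0.10 for TRB and -0.06 for TRG between the arms, and -0.82 for immunoglobulin over T cell receptor density. With peaks at least 300 bp wide, losses numbered 0 in 697 and 3 in KOPN-8, and line-only regions 8 in 697 and 26 in KOPN-8. That setting gave log2 ratios of 0.16 for TRB between the lines, 0.00 for TRA/TRD and 0.35 for TRB between the arms, and -0.71 for density. Plain numbers of peaks gave TRB 0.43 between the lines and 0.01 between the arms. Stretches of at least 50 kb numbered 17 in 697 and 18 in KOPN-8. The cause of these changes was not tested. Leaving out 1 library, so that a lone library decides its arm, gave 16 to 42 gained and 6 to 16 lost regions in 697, and 21 to 30 gained and 18 to 35 lost in KOPN-8. In 697 gains numbered 42 without clone replicate 1, 19 without clone replicate 2 and 29 without control replicate 2, and losses 9 without clone replicate 2, 16 without control replicate 1 and 10 without control replicate 2. In KOPN-8 gains and losses numbered 21 and 19 without clone replicate 1, 30 and 18 without clone replicate 2, 24 and 24 without control replicate 1, and 24 and 35 without control replicate 2. Between the arms the log2 ratio ranged from -0.12 to 0.05 for TRB, and was 0.03 without 697 control replicate 2, 0.05 without KOPN-8 clone replicate 1 and 0.01 without KOPN-8 control replicate 1. For TRG it ranged from -0.05 to 0.11, and was -0.02 without 697 clone replicate 1 and -0.05 without KOPN-8 clone replicate 2. Swapping labels only within a replicate number (the replicate block) cannot change the ratios, 0.31 for IGL and 0.47 for IGK among them, and with p no smaller than 0.125 it bears on no call. List length without known depth limits how many weak regions can be called.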
